A study of Homo sapiens with 18 samples.

Results

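The genes described here are 9 established targets of the transcription factor p53: CDKN1A, MDM2, BAX, BBC3, GDF15, SESN1, SESN2, ZMAT3 and TP53I3. They were chosen by gene symbol from the 60675 human gene rows of the count table, and all 9 were among the 26804 genes with enough reads to test. The study sequenced RNA from HEK293T, a cell line of human embryonic kidney origin, whose cells carried YTHDF3-ADAR, YTHDF2-ADAR or YTHDF1-ADAR, each a fusion of an m6A reader protein to an RNA-editing deaminase. Total RNA and polysome RNA, the RNA of pooled gradient fractions with more than 2 ribosomes, were each sequenced in 3 libraries per fusion, giving 18 libraries. All cells received 1 µg/mL doxycycline for 24 h, which switches the fusion on, and 100 µg/mL cycloheximide for 10 min, which holds ribosomes on mRNA. Every library analysed here carried a fusion, so the lines were compared with each other, and the labels do not say whether a line is a single clone.

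p53 is kept low in unstressed cells by MDM2, a ubiquitin ligase that binds p53 and marks it for degradation, and MDM2 is itself a p53 target, which closes a feedback loop. Once p53 accumulates it switches on genes that stop the cell cycle, repair DNA, lower mTOR signalling or start apoptosis. HEK293T cells carry the SV40 large T antigen, which binds p53 and holds it inactive, so the levels below are those of a line in which this pathway is constrained by origin. YTHDF proteins bind N6-methyladenosine in mRNA, and the fused deaminase leaves A-to-G changes near the bound site.

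Libraries held between 42.7e6 and 67.5e6 counts. Levels are given as CPM, counts scaled to a common library size with TMM factors, which assume that most genes do not differ. The fusion labels were checked first: in total RNA YTHDF1, YTHDF2 and YTHDF3 were each highest in the line named for them. On polysomes this held for YTHDF1 and YTHDF2. YTHDF3 overlapped there, at 89.1, 80.4 and 74.3 CPM in YTHDF3-ADAR and 79.4, 72.3 and 77.7 CPM in YTHDF1-ADAR cells. All 7 markers listed for HEK293T cells were detected in every library, and 7 of the 8 markers of blood, liver, fibroblast and squamous cells stayed at or below 0.141 CPM, the exception being COL1A1 at 5.17 to 32.8 CPM. In bulk RNA, fewer cells that express a gene and less RNA of it per cell cannot be told apart.

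The libraries numbered 1 of the YTHDF3-ADAR line stood apart in both fractions. The SD over genes of their log2 difference to replicates 2 and 3 was 0.772 and 0.785 in polysome RNA, against 0.432 between replicates 2 and 3, and 0.811 and 0.762 in total RNA, against 0.378. In the other groups this SD lay between 0.335 and 0.649. Results that involve this line are therefore given with these libraries and also without both of them, a choice made after the values were seen. For a gene whose replicate 1 lay apart, leaving it out moved the value by construction. Calls gained in that way lend no separate support. By another measure, the chi-square per degree of freedom of the counts, replicate 1 of total RNA stood apart in every line. It was 133.92 and 130.25 to replicates 2 and 3 of YTHDF3-ADAR, against 15.59 between those. The same values were 68.43 and 50.5 against 6.53 in YTHDF2-ADAR, and 147.51 and 189.67 against 25.69 in YTHDF1-ADAR. The YTHDF2-ADAR and YTHDF1-ADAR libraries were left out only singly.

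p53 binds DNA through a pair of decamers, and the windows printed below belong to the 2 of the 9 genes whose closest match before a start had the fewest mismatches. In 15 RefSeq windows of the 9 genes (build GRCh38.p14, 250 bases before to 50 after a start, all 9 genes matched), the full 20-base consensus with no spacer was searched on both strands. The fewest mismatches were found in windows of an internal MDM2 start, with 2, a number reached or bettered by 0.649% of all 35116 windows. Next came an internal SESN1 start and the GDF15 window, each with 3 mismatches (the GDF15 match lies after its start), reached or bettered by 5.2% of windows. The bases before the start are printed 5′ to 3′ with the closest match in capitals, for MDM2 at chr12:68808767-68809016 on the plus strand and for SESN1 at chr6:109008989-109009238 on the minus strand.
MDM2: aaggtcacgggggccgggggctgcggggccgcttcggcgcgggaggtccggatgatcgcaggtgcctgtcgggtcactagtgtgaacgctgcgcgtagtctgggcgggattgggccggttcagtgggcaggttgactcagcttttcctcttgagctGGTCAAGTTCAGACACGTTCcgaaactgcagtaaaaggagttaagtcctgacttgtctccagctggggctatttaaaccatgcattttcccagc
SESN1: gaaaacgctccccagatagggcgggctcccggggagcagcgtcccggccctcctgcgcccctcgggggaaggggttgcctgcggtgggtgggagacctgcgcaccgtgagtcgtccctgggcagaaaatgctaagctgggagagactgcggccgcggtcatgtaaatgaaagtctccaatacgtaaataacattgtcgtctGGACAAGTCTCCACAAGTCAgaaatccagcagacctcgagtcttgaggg
The MDM2 match ended 74 bases before that start and the SESN1 match 29 bases before its start. Windows of the other genes needed 4 or more mismatches, and a match describes these letters only.

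MDM2 was lower in YTHDF3-ADAR cells than in both other lines, in polysome RNA and in total RNA. In polysome RNA its level was 173, 147 and 161 CPM in YTHDF3-ADAR cells, 259, 238 and 248 CPM in YTHDF2-ADAR cells, and 245, 256 and 264 CPM in YTHDF1-ADAR cells. Its total RNA level was 172, 120 and 124 CPM in YTHDF3-ADAR cells, 229, 231 and 216 CPM in YTHDF2-ADAR cells, and 211, 216 and 226 CPM in YTHDF1-ADAR cells. Every YTHDF3-ADAR library lay below every library of the other lines in its fraction, while YTHDF2-ADAR and YTHDF1-ADAR libraries overlapped.

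On polysomes the MDM2 log2 fold change was -0.63 ± 0.12 (SE) for YTHDF3-ADAR against YTHDF2-ADAR (edgeR adjusted p = 0.00179, by the quasi-likelihood test and adjusted over all tested genes by Benjamini-Hochberg) and -0.67 ± 0.12 against YTHDF1-ADAR (edgeR adjusted p = 0.00116). In total RNA it was -0.70 ± 0.12 against YTHDF2-ADAR (edgeR adjusted p = 0.000877) and -0.65 ± 0.12 against YTHDF1-ADAR (edgeR adjusted p = 0.00187). When only the compared libraries were fitted, the total RNA values were -0.70 (edgeR adjusted p = 0.0509) and -0.65 (edgeR adjusted p = 0.0815) and missed the threshold of 0.05. Without both YTHDF3-ADAR libraries numbered 1, the log2 fold changes were -0.67 and -0.72 in polysome RNA and -0.92 and -0.87 in total RNA, all called. YTHDF2-ADAR and YTHDF1-ADAR cells differed by -0.04 ± 0.12 on polysomes and 0.05 ± 0.12 in total RNA (edgeR adjusted p = 0.988 and 1). MDM2 spans chr12:68808177-68850686 on the plus strand of GRCh38, with 13448 exonic bases. Within them lie the exons of an unnamed gene on the opposite strand (785 bases) and of another on the same strand (439 bases), and whether counting used strand is unknown from these sources, so reads of these genes cannot be told apart from those of MDM2.

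MDM4, the paralog that binds p53 without degrading it efficiently by itself, did not pass the test between lines with all libraries. In total RNA it lay at 98.8, 150 and 152 CPM in YTHDF3-ADAR cells, 115, 120 and 110 CPM in YTHDF2-ADAR cells, and 99.7, 90.9 and 108 CPM in YTHDF1-ADAR cells. Its YTHDF3-ADAR library numbered 1 lay within the range of YTHDF1-ADAR and below YTHDF2-ADAR, and the remaining libraries of that line lay above both. MDM4 without both YTHDF3-ADAR libraries numbered 1 was higher against YTHDF1-ADAR on polysomes, at 0.59 ± 0.15 (edgeR adjusted p = 0.00496), and in total RNA, at 0.57 ± 0.15 (edgeR adjusted p = 0.00685). Against YTHDF2-ADAR it stood at 0.36 ± 0.15 in both fractions of that fit (edgeR adjusted p = 0.067 on polysomes and 0.0654 in total RNA). MDM4 was lowest of its line in the libraries left out, so leaving them out raised its values by construction. The p-values of that fit lend no separate support.

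Of the 3 apoptosis genes, only BAX passed a test between lines with all libraries. BAX, which forms pores in the outer mitochondrial membrane, was lower in YTHDF3-ADAR cells than in YTHDF2-ADAR cells. In polysome RNA BAX stood at 79.7, 69.0 and 69.7 CPM in YTHDF3-ADAR cells, 125, 99.9 and 102 CPM in YTHDF2-ADAR cells, and 89.5, 97.9 and 84.4 CPM in YTHDF1-ADAR cells. The total RNA values of BAX were 71.6, 74.1 and 68.3 CPM in YTHDF3-ADAR cells, 118, 79.2 and 88.5 CPM in YTHDF2-ADAR cells, and 85.4, 81.7 and 75.6 CPM in YTHDF1-ADAR cells. YTHDF3-ADAR libraries lay below those of both other lines in each fraction. YTHDF2-ADAR libraries lay above YTHDF1-ADAR libraries on polysomes and overlapped them in total RNA.

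The BAX log2 fold change was -0.58 ± 0.13 on polysomes (edgeR adjusted p = 0.00571) and -0.42 ± 0.13 in total RNA (edgeR adjusted p = 0.0311) for YTHDF3-ADAR against YTHDF2-ADAR. The total RNA call was lost without replicate 1 of YTHDF2-ADAR, where the log2 fold change was -0.23 (edgeR adjusted p = 0.161). Leaving out YTHDF3-ADAR replicate 2 or 3 gave -0.45 and -0.39 (edgeR adjusted p = 0.075 and 0.119), and fitting only the compared libraries gave -0.42 (edgeR adjusted p = 0.106). The call was also lost with library totals alone and with the replicate block, so 6 of 13 alternatives lost it. Against YTHDF1-ADAR the values were -0.32 ± 0.13 on polysomes (edgeR adjusted p = 0.0883) and -0.18 ± 0.13 in total RNA (edgeR adjusted p = 0.345). Without both YTHDF3-ADAR libraries numbered 1 the polysome value against YTHDF1-ADAR was -0.38 ± 0.14 and passed (edgeR adjusted p = 0.0362). BAX spans chr19:48954815-48961798 on the plus strand. BAK1, which forms pores with BAX, was lower on polysomes in YTHDF3-ADAR cells as well, at -0.58 ± 0.11 against YTHDF2-ADAR (edgeR adjusted p = 0.0021) and -0.57 ± 0.11 against YTHDF1-ADAR (edgeR adjusted p = 0.00226). Its total RNA values, -0.29 ± 0.11 and -0.31 ± 0.11, did not pass the test with all libraries. They passed it without both YTHDF3-ADAR libraries numbered 1, at -0.34 ± 0.10 against YTHDF2-ADAR (edgeR adjusted p = 0.00719) and -0.36 ± 0.10 against YTHDF1-ADAR (edgeR adjusted p = 0.00555).

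BBC3, at chr19:47220822-47232766 on the minus strand, encodes PUMA, a BH3-only protein that frees BAX and BAK1 from their inhibitors. On polysomes it stood at 20.4, 36.6 and 30.3 CPM in YTHDF3-ADAR cells, 28.9, 25.0 and 26.3 CPM in YTHDF2-ADAR cells, and 23.1, 24.1 and 24.4 CPM in YTHDF1-ADAR cells. Total RNA levels of BBC3 were 16.6, 35.7 and 34.1 CPM in YTHDF3-ADAR cells, 26.0, 21.1 and 23.7 CPM in YTHDF2-ADAR cells, and 20.9, 21.2 and 20.4 CPM in YTHDF1-ADAR cells. In both fractions the first YTHDF3-ADAR library was the lowest of the 9 and the other two were the highest. TP53I3, at chr2:24077433-24085861 on the minus strand, which encodes the quinone reductase PIG3, was among the low members, at 4.65 to 9.22 CPM in YTHDF3-ADAR cells, 4.26 to 5.93 CPM in YTHDF2-ADAR cells and 4.78 to 7.10 CPM in YTHDF1-ADAR cells over both fractions. It passed no test between lines.

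**Figure D1:**
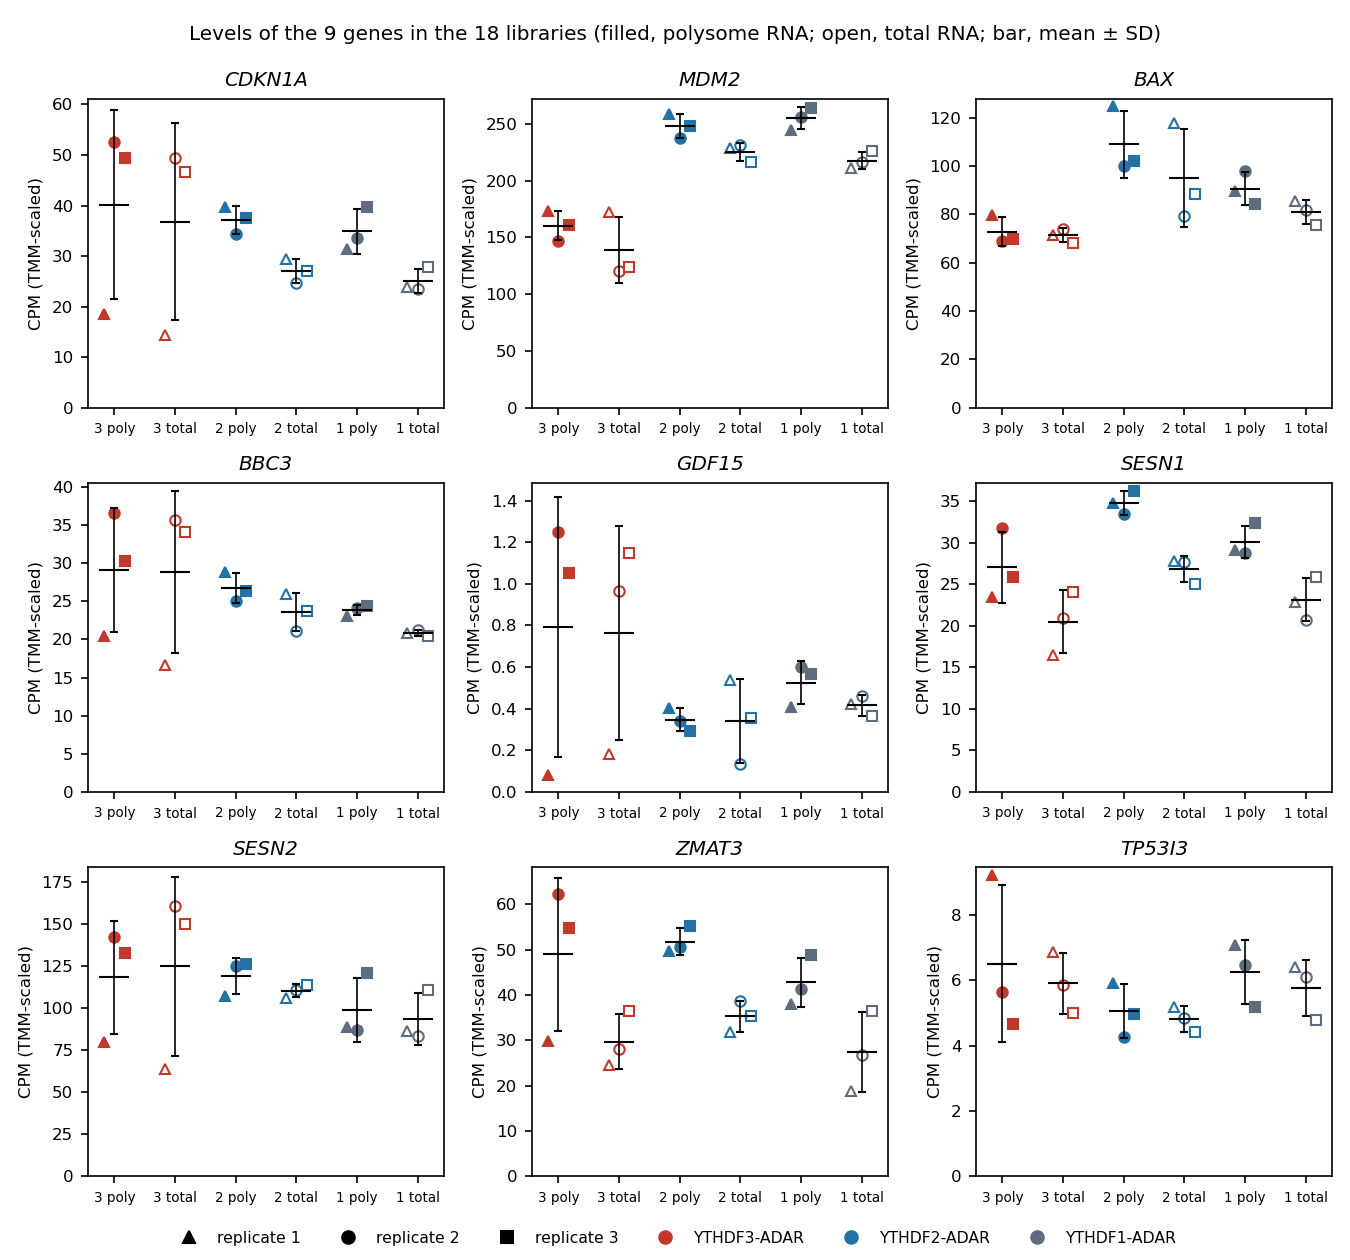
Level of each gene in CPM (TMM-scaled, linear axis from 0) in every library, for polysome RNA (filled) and total RNA (open) of the YTHDF3-ADAR (3), YTHDF2-ADAR (2) and YTHDF1-ADAR (1) lines; bars give the mean ± SD of 3 libraries and symbols the replicate number. MDM2 and BAX lie lower in all YTHDF3-ADAR libraries, while replicate 1 of that line (triangles) lies far below replicates 2 and 3 for CDKN1A, BBC3, GDF15 and SESN2.

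CDKN1A, BBC3, GDF15 and SESN2 varied with the replicate number within the YTHDF3-ADAR line. CDKN1A, at chr6:36676460-36687337 on the plus strand, encodes p21, the inhibitor of cyclin-dependent kinases that carries out the cell cycle arrest by p53. In polysome RNA it stood at 18.6, 52.6 and 49.3 CPM in YTHDF3-ADAR cells, 39.7, 34.3 and 37.5 CPM in YTHDF2-ADAR cells, and 31.3, 33.6 and 39.8 CPM in YTHDF1-ADAR cells. Its total RNA level was 14.3, 49.4 and 46.7 CPM in YTHDF3-ADAR cells, 29.5, 24.7 and 27.1 CPM in YTHDF2-ADAR cells, and 23.9, 23.4 and 27.9 CPM in YTHDF1-ADAR cells. In both fractions replicate 1 of YTHDF3-ADAR was the lowest library of its fraction and replicates 2 and 3 were the highest.

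SESN2, at chr1:28259518-28282491 on the plus strand, encodes a stress-induced protein that lowers mTORC1 activity and is also a known target of ATF4, the transcription factor of the integrated stress response. On polysomes its level was 79.8, 142 and 133 CPM in YTHDF3-ADAR cells, 107, 125 and 126 CPM in YTHDF2-ADAR cells, and 88.9, 86.8 and 121 CPM in YTHDF1-ADAR cells. Its total RNA level was 63.7, 161 and 150 CPM in YTHDF3-ADAR cells, 106, 111 and 114 CPM in YTHDF2-ADAR cells, and 86.4, 83.1 and 111 CPM in YTHDF1-ADAR cells. Replicate 1 of YTHDF3-ADAR was again the lowest library of each fraction, and replicates 2 and 3 the highest. GDF15, at chr19:18374731-18389176 on the plus strand, encodes a secreted stress cytokine that ATF4 can also induce, and it was close to the detection limit at 10, 45 and 60 reads in total RNA of YTHDF3-ADAR cells, against 18, 7 and 15 reads in YTHDF2-ADAR cells and 14, 21 and 15 reads in YTHDF1-ADAR cells. On polysomes GDF15 had 4, 82 and 66 reads in YTHDF3-ADAR cells, 23, 26 and 15 reads in YTHDF2-ADAR cells, and 28, 39 and 31 reads in YTHDF1-ADAR cells. The YTHDF3-ADAR replicate 1 value was the lowest of its line for both genes in both fractions.

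With all libraries, none of these 4 genes passed the test between lines. In total RNA the log2 fold change of YTHDF3-ADAR against YTHDF2-ADAR was 0.44 ± 0.37 for CDKN1A, 0.29 ± 0.23 for BBC3, 1.20 ± 0.72 for GDF15 and 0.18 ± 0.27 for SESN2 (edgeR adjusted p = 0.389, 0.361, 0.228 and 0.647). Against YTHDF1-ADAR it was 0.55 ± 0.37, 0.47 ± 0.23, 0.87 ± 0.70 and 0.42 ± 0.27 for the same genes in that order (edgeR adjusted p = 0.304, 0.158, 0.4 and 0.29). Without both YTHDF3-ADAR libraries numbered 1, all 4 were higher in total RNA against YTHDF2-ADAR, by 0.79 ± 0.11 for CDKN1A (edgeR adjusted p = 1.11e-05), 0.53 ± 0.10 for BBC3 (edgeR adjusted p = 0.000224), 1.66 ± 0.35 for GDF15 (edgeR adjusted p = 0.000895) and 0.46 ± 0.13 for SESN2 (edgeR adjusted p = 0.00886). They were also higher against YTHDF1-ADAR in that fit, by 0.91, 0.72, 1.31 and 0.70 (edgeR adjusted p = 3.03e-06, 1.35e-05, 0.00482 and 0.000403). On polysomes in that fit CDKN1A, BBC3 and GDF15 were higher against both lines. SESN2 was higher there by 0.49 ± 0.13 against YTHDF1-ADAR (edgeR adjusted p = 0.0062) and stood at 0.22 ± 0.13 against YTHDF2-ADAR (edgeR adjusted p = 0.183). These 4 genes were grouped by their low replicate 1, so leaving it out raised their values by construction. The p-values of that fit therefore lend no separate support.

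ATF4 target genes moved with the same libraries. The summed level of the 14 genes on the ATF4 list was 759, 1770 and 1800 CPM on polysomes and 816, 1810 and 1790 CPM in total RNA of YTHDF3-ADAR replicates 1, 2 and 3. It was 939 to 1010 CPM on polysomes and 911 to 957 CPM in total RNA of YTHDF2-ADAR cells, and 900 to 1200 CPM and 867 to 1050 CPM in YTHDF1-ADAR cells. In both fractions 13 of the 14 genes were lower in YTHDF3-ADAR replicate 1 than in replicates 2 and 3. The same held for 6 of the 9 p53 targets, 66.7%, beside 45.9% of all tested genes on polysomes and 44.2% in total RNA. The part of the ATF4 genes in the values of CDKN1A, BBC3, GDF15 and SESN2 was not tested.

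With all libraries 3 of the 14 ATF4 genes were called in total RNA of YTHDF3-ADAR against YTHDF2-ADAR cells, all higher, a count near the 22.8% of all tested genes called. That percentage covers both directions, 4085 genes higher and 2028 lower. The list median was 0.64, beside 0.02 for all tested genes. NUPR1, a stress-induced chromatin protein, led at 3.16 ± 0.94 (edgeR adjusted p = 0.025), followed by CHAC1, which breaks down glutathione, at 2.13 ± 0.73 (edgeR adjusted p = 0.0475). NUPR1 stood at 0.182, 3.94 and 4.43 CPM in total RNA of YTHDF3-ADAR cells, against 0.210 to 0.365 CPM in YTHDF2-ADAR cells and 0.198 to 0.437 CPM in YTHDF1-ADAR cells, so its first library lay below all libraries of the other lines and the remaining libraries above them. Without both libraries numbered 1, 12 of the 14 were higher and 1 was lower against each other line in total RNA, beside 50.9% of all tested genes called against YTHDF2-ADAR and 46.8% against YTHDF1-ADAR. Since 13 of the 14 were lowest of their line in the libraries left out, this fit raised their values by construction and lends no separate support.

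SESN1, at chr6:108986437-109094819 on the minus strand, encodes a sestrin that p53 induces and that lowers mTORC1 activity. Its exons share 363 bases with those of an unnamed gene on the opposite strand. Whether counting used strand is unknown, so reads there cannot be told apart. In polysome RNA SESN1 stood at 23.5, 31.7 and 25.8 CPM in YTHDF3-ADAR cells, 34.7, 33.4 and 36.2 CPM in YTHDF2-ADAR cells, and 29.1, 28.8 and 32.3 CPM in YTHDF1-ADAR cells. In total RNA it stood at 16.5, 20.9 and 24.0 CPM in YTHDF3-ADAR cells, 27.8, 27.6 and 25.0 CPM in YTHDF2-ADAR cells, and 22.9, 20.7 and 25.8 CPM in YTHDF1-ADAR cells. YTHDF3-ADAR libraries lay below those of YTHDF2-ADAR in both fractions and overlapped YTHDF1-ADAR. Against YTHDF2-ADAR the log2 fold change was -0.36 ± 0.13 on polysomes (edgeR adjusted p = 0.0557) and -0.39 ± 0.14 in total RNA (edgeR adjusted p = 0.0476). The total RNA call was lost in 5 of the 6 fits that each left out 1 of the compared libraries, with edgeR adjusted p up to 0.131, whereas without both YTHDF3-ADAR libraries numbered 1 it was -0.29 ± 0.11 (edgeR adjusted p = 0.0347). SESN3, the third sestrin, passed no test between lines with all libraries.

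ZMAT3, at chr3:178960121-179072215 on the minus strand, encodes a zinc finger protein that binds RNA and is induced by p53. In polysome RNA it stood at 29.9, 62.2 and 54.8 CPM in YTHDF3-ADAR cells, 49.6, 50.6 and 55.2 CPM in YTHDF2-ADAR cells, and 38.1, 41.4 and 48.8 CPM in YTHDF1-ADAR cells. In total RNA it stood at 24.5, 28.1 and 36.4 CPM in YTHDF3-ADAR cells, 31.8, 38.6 and 35.4 CPM in YTHDF2-ADAR cells, and 18.9, 26.8 and 36.4 CPM in YTHDF1-ADAR cells. The lines overlapped except on polysomes, where YTHDF2-ADAR libraries lay above YTHDF1-ADAR libraries, and no difference between lines passed the test. On polysomes YTHDF2-ADAR libraries also lay above YTHDF1-ADAR libraries for BAX, BBC3 and SESN1, and below them for GDF15, none of them called. The share of all tested genes whose libraries separate between lines was not computed.

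Counted together, 3 of the 9 genes passed the test in total RNA of YTHDF3-ADAR against YTHDF2-ADAR (MDM2, BAX and SESN1, all lower), beside 22.8% of all tested genes. Against YTHDF1-ADAR it was 1 of 9 (MDM2), beside 18.1%. On polysomes it was 2 of 9 (MDM2 and BAX) against YTHDF2-ADAR, beside 25.1%, and 1 of 9 (MDM2) against YTHDF1-ADAR, beside 23.3%. YTHDF2-ADAR and YTHDF1-ADAR cells differed in 0 of 9 genes on polysomes and 0 of 9 in total RNA, beside 2.35% and 1.83% of all tested genes; the smallest unadjusted p of a member was 0.0559 and 0.0891, and DESeq2 also called none. These percentages count calls in both directions, and with 9 genes the counts lie near them. All calls among the 9 genes were lower. Of the 26804 tested genes, 4085 were higher and 2028 lower in total RNA against YTHDF2-ADAR, and 3109 and 1747 against YTHDF1-ADAR. On polysomes 3634 were higher and 3093 lower against YTHDF2-ADAR, and 3182 and 3063 against YTHDF1-ADAR. Without both YTHDF3-ADAR libraries numbered 1, 7 of 9 and 5 of 9 were called in total RNA against YTHDF2-ADAR and YTHDF1-ADAR, beside 50.9% and 46.8% of all tested genes. In that fit 5 of 9 and 6 of 9 were called on polysomes, beside 49.6% and 48.2%.

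**Figure D2:**
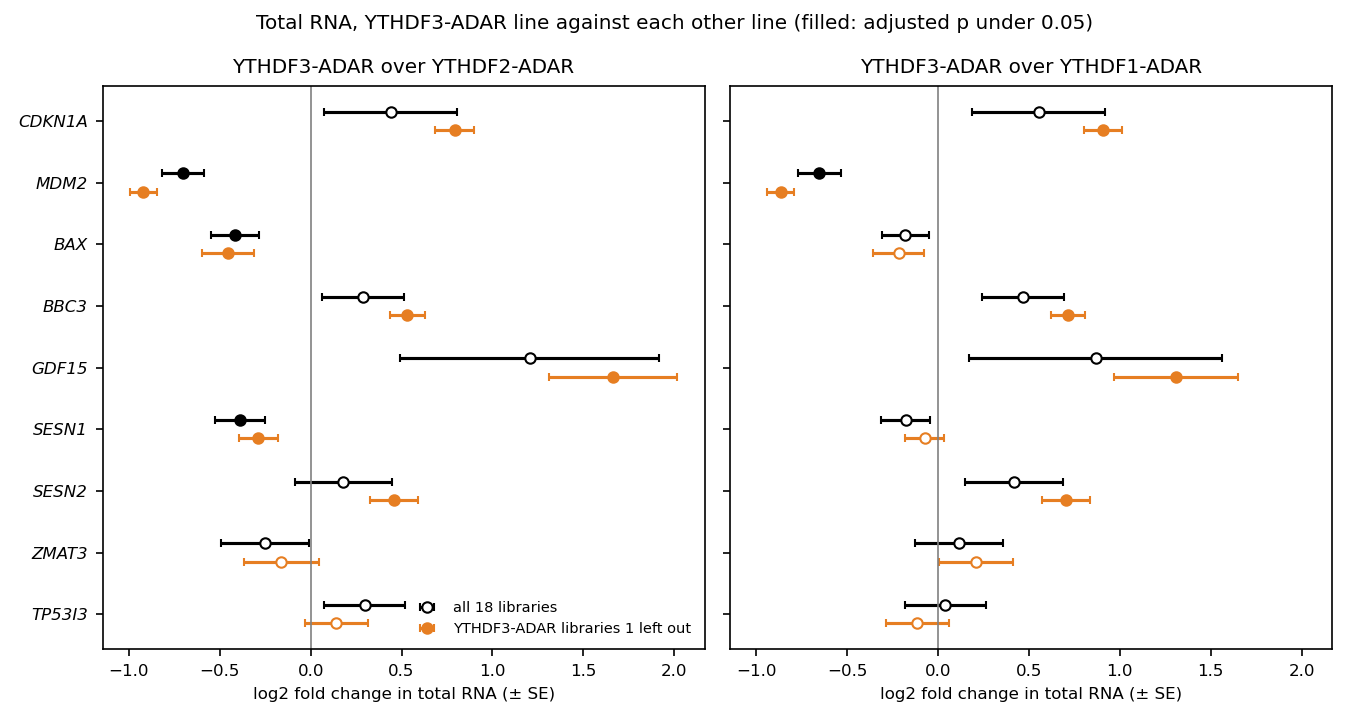
Log2 fold change (± SE) of each gene in total RNA of YTHDF3-ADAR cells over YTHDF2-ADAR cells (left) and YTHDF1-ADAR cells (right), with all 18 libraries (black) and without both YTHDF3-ADAR libraries numbered 1 (orange); filled points have an edgeR adjusted p under 0.05. MDM2 lies between -0.65 and -0.92 in all 4 fits, while CDKN1A, BBC3, GDF15 and SESN2 are called only where those libraries were left out.

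Other p53 targets were called lower in YTHDF3-ADAR cells more often than higher when all libraries were used. Of 32 tested genes on a textbook list of 33, 9 were lower and 1 was higher in total RNA of YTHDF3-ADAR against YTHDF2-ADAR, beside 22.8% of all tested genes called. Those calls among all tested genes were 4085 higher and 2028 lower. The list median was -0.13, beside 0.02 for all tested genes. AEN, a p53-induced nuclease, had the lowest value at -0.84 ± 0.12 (edgeR adjusted p = 0.0003), then TIGAR, which lowers glycolytic flux, at -0.80 ± 0.18 (edgeR adjusted p = 0.00581). TP53INP1, a stress-induced nuclear protein, was the 1 gene called higher, at 0.72 ± 0.24 (edgeR adjusted p = 0.0411). Against YTHDF1-ADAR 8 were lower and none higher, beside 18.1% of all tested genes called, with RRM2B, a ribonucleotide reductase subunit, at -0.84 ± 0.25 (edgeR adjusted p = 0.0305). Among all tested genes 3109 were higher and 1747 lower there.

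On polysomes 10 of these 32 were lower and 2 higher in YTHDF3-ADAR against YTHDF2-ADAR, and 12 were lower and none higher against YTHDF1-ADAR, beside 25.1% and 23.3% of all tested genes called. Among all tested genes 3634 were higher and 3093 lower against YTHDF2-ADAR, and 3182 and 3063 against YTHDF1-ADAR. PHLDA3, which restrains AKT, had the lowest value against YTHDF2-ADAR at -1.05 ± 0.14 (edgeR adjusted p = 0.000161). TNFRSF10B, a death receptor for TRAIL, stood at -0.77 ± 0.10 against YTHDF1-ADAR (edgeR adjusted p = 0.000141). Without both YTHDF3-ADAR libraries numbered 1 both directions were called, with 11 lower and 8 higher in total RNA against YTHDF2-ADAR and 9 lower and 9 higher against YTHDF1-ADAR, beside 50.9% and 46.8% of all tested genes called. On polysomes 12 were lower and 6 higher against YTHDF2-ADAR in that fit, and 13 were lower and 9 higher against YTHDF1-ADAR, beside 49.6% and 48.2%.

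Among 19 regulators of p53, 5 were lower and 1 higher in total RNA of YTHDF3-ADAR against YTHDF2-ADAR, where 22.8% of all tested genes were called (4085 higher and 2028 lower). RCHY1, a ubiquitin ligase for p53, stood at -0.61 ± 0.13 (edgeR adjusted p = 0.004), CREBBP, an acetyltransferase of p53, at -0.48 ± 0.15 (edgeR adjusted p = 0.0272), and CHEK2, a kinase of p53, at 0.35 ± 0.10 (edgeR adjusted p = 0.0201). In the fit without both YTHDF3-ADAR libraries numbered 1, 8 of the 19 were lower and 3 higher, beside 50.9% of all tested genes called.

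Of 12 tested BCL2 family genes 4 were higher and none lower in the same comparison with all libraries, led by BMF at 1.20 ± 0.27 (edgeR adjusted p = 0.00566) and BIK at 1.02 ± 0.35 (edgeR adjusted p = 0.0445), both BH3-only proteins. In the fit without both YTHDF3-ADAR libraries numbered 1, 6 were higher and 3 lower, the lowest being MCL1, an anti-apoptotic member, at -0.61 ± 0.08 (edgeR adjusted p = 4.39e-06). Of the 6 other CDK inhibitors 1 passed with all libraries, CDKN1C, encoding p57, at 1.32 ± 0.33 (edgeR adjusted p = 0.00962). Without those libraries, CDKN1C at 1.65 ± 0.14 and CDKN2D at 0.79 ± 0.13 were higher, and CDKN2B at -0.72 ± 0.12 and CDKN2A at -0.27 ± 0.11 were lower (edgeR adjusted p = 9.12e-08, 0.000106, 7.02e-05 and 0.0481). Of 10 cell cycle genes that p21 lowers through the DREAM complex, CCNA2, encoding cyclin A2, was lower, at -0.53 ± 0.12 (edgeR adjusted p = 0.00543), and none was higher. With both YTHDF3-ADAR libraries numbered 1 left out, 5 of these 10 were lower and none higher against YTHDF2-ADAR in total RNA, and their median was -0.25. The counts of these 3 lists stand beside 22.8% of all tested genes called with all libraries and 50.9% without those 2.

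SESN1 and ZMAT3 were higher in polysome RNA than in total RNA of YTHDF3-ADAR cells, and of every line once replicates were paired. In YTHDF3-ADAR cells the log2 fold change of polysome over total RNA was 0.72 ± 0.24 for ZMAT3 (edgeR adjusted p = 0.0443) and 0.40 ± 0.13 for SESN1 (edgeR adjusted p = 0.0454), and these were the 2 of 9 genes that passed, beside 20.1% of all tested genes. That percentage covers both directions, 2147 genes higher and 3245 lower on polysomes. In YTHDF2-ADAR cells ZMAT3 stood at 0.55 ± 0.24 (edgeR adjusted p = 0.138) and SESN1 at 0.38 ± 0.13 (edgeR adjusted p = 0.0692), with 0 of 9 genes called beside 15.8%. In YTHDF1-ADAR cells ZMAT3 stood at 0.64 ± 0.24 (edgeR adjusted p = 0.0698) and SESN1 at 0.38 ± 0.13 (edgeR adjusted p = 0.056), with 0 of 9 called beside 21.2%. Before adjustment, 2 of the 9 had p under 0.05 in YTHDF2-ADAR and 2 in YTHDF1-ADAR cells, where calls by DESeq2 numbered 0 and 1.

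Libraries of the same line and number deviated together in both fractions, so the comparison was also fitted with replicate pairs as a block. The labels do not say that replicate numbers pair libraries, so this pairing was inferred from the same data. Some polysome libraries lay closer to a total RNA library of another number. In the blocked fit SESN1 was higher on polysomes in YTHDF3-ADAR, YTHDF2-ADAR and YTHDF1-ADAR cells, by 0.40, 0.38 and 0.38 (edgeR adjusted p = 0.0058, 0.00894 and 0.00704). ZMAT3 was higher by 0.68, 0.56 and 0.68 in the same lines (edgeR adjusted p = 0.0077, 0.0197 and 0.00656). CDKN1A was higher by 0.46 in YTHDF2-ADAR cells (edgeR adjusted p = 0.000911) and by 0.47 in YTHDF1-ADAR cells (edgeR adjusted p = 0.000549), but not called in YTHDF3-ADAR cells, and MDM2 was higher by 0.23 in YTHDF1-ADAR cells (edgeR adjusted p = 0.0466). The blocked counts were 2, 3 and 4 of 9 in YTHDF3-ADAR, YTHDF2-ADAR and YTHDF1-ADAR cells, beside 33.7%, 30.4% and 36.7% of all tested genes.

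Pair by pair, the log2 difference of polysome minus total RNA was above 0 in all 9 pairs for ZMAT3 (0.289 to 1.145), SESN1 (0.106 to 0.599), CDKN1A (0.077 to 0.523) and MDM2 (0.009 to 0.376). It was above 0 in 8 of 9 pairs for BAX and for BBC3, 7 for SESN2, 6 for TP53I3 and 4 for GDF15, whose values spread from -1.166 to 1.352 at its low counts. The share of all tested genes with every pair above 0 was not computed, so these counts do not set the 9 genes apart. CDKN1A and MDM2 were called in no line in the fit of all libraries without pairs. CDKN1A was 0.381, 0.090 and 0.077 in the YTHDF3-ADAR pairs, 0.430, 0.474 and 0.465 in the YTHDF2-ADAR pairs, and 0.387, 0.523 and 0.511 in the YTHDF1-ADAR pairs. The YTHDF3-ADAR pair numbered 1 thus lay nearer to the other lines than the remaining pairs of that line did. Over the 9 genes the median log2 fold change was 0.13, 0.18 and 0.23 in YTHDF3-ADAR, YTHDF2-ADAR and YTHDF1-ADAR cells, beside -0.05, 0.04 and 0.03 for all tested genes. Other lists had similar medians in YTHDF1-ADAR cells: 0.303 for CDK inhibitors, 0.255 for genes lowered through p21 and DREAM, and 0.251 for the BCL2 family. Other p53 targets stood at 0.247, ATF4 targets at 0.204 and p53 regulators at -0.022. A median above that of all tested genes was thus not particular to the 9 genes.

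**Figure D3:**
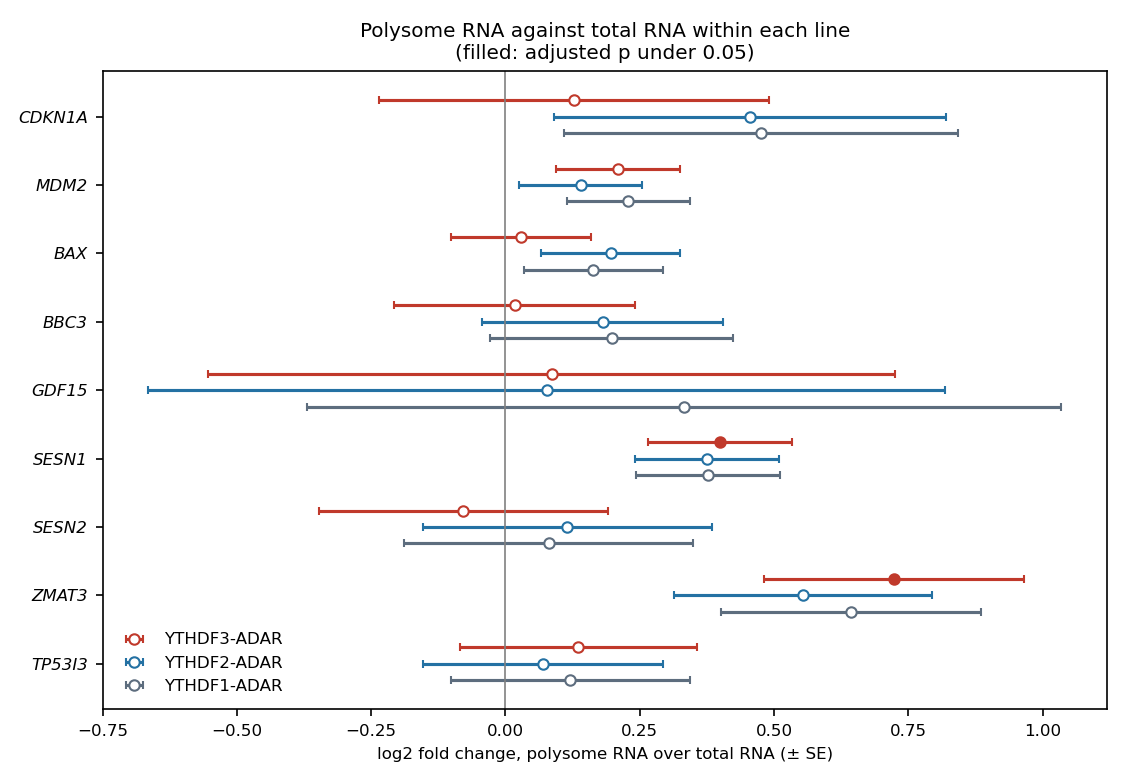
Log2 fold change (± SE) of polysome over total RNA for each gene in YTHDF3-ADAR, YTHDF2-ADAR and YTHDF1-ADAR cells, from the fit of all 18 libraries without replicate pairs; filled points have an edgeR adjusted p under 0.05. ZMAT3, SESN1 and MDM2 lie above 0 by more than their SE in every line, and 2 points, those of ZMAT3 and SESN1 in YTHDF3-ADAR cells, are filled.

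The calls in YTHDF3-ADAR cells depended on single libraries. ZMAT3 was lost without polysome replicate 2 (0.52, edgeR adjusted p = 0.211), polysome replicate 3 (0.64, edgeR adjusted p = 0.114), total RNA replicate 1 (0.68, edgeR adjusted p = 0.0735) or total RNA replicate 2 (0.69, edgeR adjusted p = 0.126). SESN1 was lost in the same 4 fits, with log2 fold changes of 0.27 to 0.43 and edgeR adjusted p of 0.0571 to 0.227. Without both libraries numbered 1, ZMAT3 stood at 0.93 ± 0.22 (edgeR adjusted p = 0.00795), SESN1 at 0.43 ± 0.12 (edgeR adjusted p = 0.0116) and MDM2 at 0.41 ± 0.08 (edgeR adjusted p = 0.00111), so 3 of 9 were called, beside 30.5% of all tested genes. The authors' deposited table of 1 unnamed comparison lists SESN1 at a log2 fold change of 0.37 with an adjusted p of 0.0449 and ZMAT3 at 0.64 with an adjusted p of 0.0529.

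The polysome share of the 9 genes did not differ detectably between lines. A test of the difference in log2 polysome over total RNA called 0 of 9 genes for YTHDF3-ADAR minus YTHDF2-ADAR, YTHDF3-ADAR minus YTHDF1-ADAR and YTHDF2-ADAR minus YTHDF1-ADAR, beside 0.0% of all tested genes each time, while 801, 877 and 166 genes fell under 0.05 before adjustment and DESeq2 found 0, 1 and 0 among all genes. The smallest unadjusted p of a member was 0.38. CDKN1A had the largest differences, -0.33 ± 0.52 for YTHDF3-ADAR minus YTHDF2-ADAR and -0.35 ± 0.52 for YTHDF3-ADAR minus YTHDF1-ADAR. SESN1 differed by 0.02 ± 0.19 in both. With 3 libraries a group and SEs of this size, smaller differences were not detectable. Without both YTHDF3-ADAR libraries numbered 1, 0 of 9 genes were called for YTHDF3-ADAR minus either other line. Among all tested genes that fit called 123 higher and 163 lower for YTHDF3-ADAR minus YTHDF2-ADAR. For YTHDF3-ADAR minus YTHDF1-ADAR it called 87 higher and 174 lower.

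Of the paralogs, SESN3 was higher on polysomes in YTHDF3-ADAR cells, at 0.79 ± 0.26 (edgeR adjusted p = 0.0405), with 0.47 ± 0.26 and 0.68 ± 0.26 in YTHDF2-ADAR and YTHDF1-ADAR cells. BAK1 was higher on polysomes in YTHDF2-ADAR cells, at 0.43 ± 0.11 (edgeR adjusted p = 0.0125), and in YTHDF1-ADAR cells, at 0.41 ± 0.11 (edgeR adjusted p = 0.0148), with 0.14 ± 0.11 in YTHDF3-ADAR cells. MDM4 stood at -0.49 ± 0.22, -0.37 ± 0.22 and -0.41 ± 0.22 in YTHDF3-ADAR, YTHDF2-ADAR and YTHDF1-ADAR cells and was not called. Thus each paralog lay on the same side of 0 in every line.

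Between polysome and total RNA, 2 of the 32 other p53 targets were higher and 1 was lower in YTHDF3-ADAR cells, 1 was higher in YTHDF2-ADAR cells, and 2 were higher in YTHDF1-ADAR cells. Beside these stand 20.1%, 15.8% and 21.2% of all tested genes called in the same lines. RRM2B had the highest value, at 1.17 ± 0.25 in YTHDF3-ADAR cells (edgeR adjusted p = 0.00432), and RAP2B, a small GTPase, was higher by 0.33 ± 0.08 in YTHDF2-ADAR cells (edgeR adjusted p = 0.0114) and 0.30 ± 0.08 in YTHDF1-ADAR cells (edgeR adjusted p = 0.0136). Without both libraries numbered 1, 6 of 32 were higher and none lower in YTHDF3-ADAR cells, beside 30.5% of all tested genes called. Among p53 regulators PRKDC, the catalytic subunit of DNA-PK, was lower on polysomes in every line, at -1.15 ± 0.29, -1.59 ± 0.29 and -1.52 ± 0.29 in YTHDF3-ADAR, YTHDF2-ADAR and YTHDF1-ADAR cells (edgeR adjusted p = 0.0114, 0.00202 and 0.00206). RPL23, a ribosomal protein that binds MDM2, was lower on polysomes in YTHDF3-ADAR cells, at -0.64 ± 0.16 (edgeR adjusted p = 0.0103).

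Divided by exonic length, BAX and SESN2 had the highest values of the 9 genes. That length takes in all annotated exons of a gene, 13448 bases for MDM2 and 11298 for ZMAT3. It can exceed the expressed transcript and so lower the value. Undivided, MDM2 had the highest mean CPM of the 9 in every group. In total RNA of YTHDF3-ADAR cells SESN2 stood at 36.1 ± 15.4 CPM per kb (mean ± SD, n = 3) and BAX at 27.6 ± 1.12, followed by CDKN1A at 12.3 ± 6.53, MDM2 at 10.3 ± 2.14 and BBC3 at 9.05 ± 3.33. SESN1 at 4.00 ± 0.738, ZMAT3 at 2.63 ± 0.541 and TP53I3 at 2.56 ± 0.401 CPM per kb came next, and GDF15 was lowest at 0.366 ± 0.245. SESN2 and BAX, the next group of CDKN1A, MDM2 and BBC3, and ZMAT3 and TP53I3 did not differ beyond these spreads. In YTHDF1-ADAR cells the order was BAX at 31.3 ± 1.92, SESN2 at 27.0 ± 4.37, MDM2 at 16.2 ± 0.555, CDKN1A at 8.36 ± 0.825 and BBC3 at 6.53 ± 0.129 CPM per kb, so MDM2 stood above CDKN1A there.

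The genes whose levels ran most like a member over the 18 libraries were found among 11807 protein-coding genes by Pearson correlation of log2 CPM, as a description, since libraries of a group share their line and fraction. MDM2 ran closest to CCNJ (r = 0.984), C17orf80 (0.982) and SRP19 (0.975). CDKN1A ran closest to MSANTD3-TMEFF1 (0.962), EIF4EBP1 (0.947) and SIAE (0.944), and SESN2 to ATF3 (0.961), LGALS3BP (0.958) and ACTA2 (0.946). ZMAT3 ran closest to EXTL2 (0.963), TAF4B (0.962) and FBXO22 (0.955), SESN1 to GLA (0.961), BBC3 to ADA (0.963), TP53I3 to CARMIL2 (0.934), BAX to ARL6IP4 (0.930) and GDF15 to RBPMS2 (0.903).

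Editing by the fused deaminase was listed for 5 of the 9 genes in the authors' deposited tables, which hold 1 value over the replicates, so no error can be given and the depth is unknown. SESN1, SESN2, MDM2 and BBC3 were listed for YTHDF3-ADAR, SESN2 and ZMAT3 for YTHDF2-ADAR, and SESN1, SESN2, MDM2 and BBC3 for YTHDF1-ADAR. That is 4, 2 and 4 of 9, beside 46.0%, 29.7% and 45.0% of 15161 tested protein-coding genes. CDKN1A, BAX, GDF15 and TP53I3 were listed for none of the fusions. ADARB1, the gene of the deaminase ADAR2, differed between lines at 1080, 1640 and 1650 CPM in total RNA of YTHDF3-ADAR, 40.5, 38.7 and 37.5 CPM in YTHDF2-ADAR, and 268, 237 and 238 CPM in YTHDF1-ADAR cells, and its part in the number of genes listed was not tested.

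SESN1 had the most sites, 12 with YTHDF3-ADAR, more than 81.1% of the genes the authors' deposited table lists for that fusion. Editing per site there, the deposited score divided by the number of sites, was 2.32% in polysome RNA and 2.54% in total RNA. With YTHDF1-ADAR the authors' deposited table gives SESN1 4 sites, at 0.480% per site in polysome RNA and 2.45% in total RNA, with an adjusted p of 0.624. MDM2 had 3 sites with YTHDF3-ADAR, at 0.584% in polysome RNA and 0.395% in total RNA, and 9 sites with YTHDF1-ADAR, at 1.81% and 1.59%, in the authors' deposited tables. These MDM2 values cover different numbers of sites. The median gene was also edited less per site with YTHDF3-ADAR, at 1.45% in polysome RNA and 1.76% in total RNA. With YTHDF1-ADAR it stood at 1.83% and 2.01%. The median gene had 4, 3 and 4 sites in the tables of YTHDF3-ADAR, YTHDF2-ADAR and YTHDF1-ADAR.

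SESN2 was the gene listed for every fusion, always with 1 site. In the authors' deposited tables its editing was 0.695% in polysome RNA and 0.562% in total RNA with YTHDF3-ADAR, 0.384% and 1.05% with YTHDF2-ADAR, and 0.595% and 1.03% with YTHDF1-ADAR. The YTHDF2-ADAR value, lower on polysomes, carried the authors' adjusted p of 0.00776, and it was the 1 difference among these genes that the authors' deposited tables call, beside 1.39% of the 4547 genes listed for that fusion. For YTHDF3-ADAR and YTHDF1-ADAR the authors' tables call none of the listed members, beside 3.55% and 2.11% of all genes listed. ZMAT3 had 1 site with YTHDF2-ADAR, at 2.94% in polysome RNA and 0 in total RNA, with an adjusted p of 1 in the authors' deposited table. BBC3 had 1 site with YTHDF3-ADAR, at 0.435% and 0.683%, and 2 sites with YTHDF1-ADAR, at 1.68% and 2.12%, in polysome and total RNA of the authors' deposited tables.

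**Figure D4:**
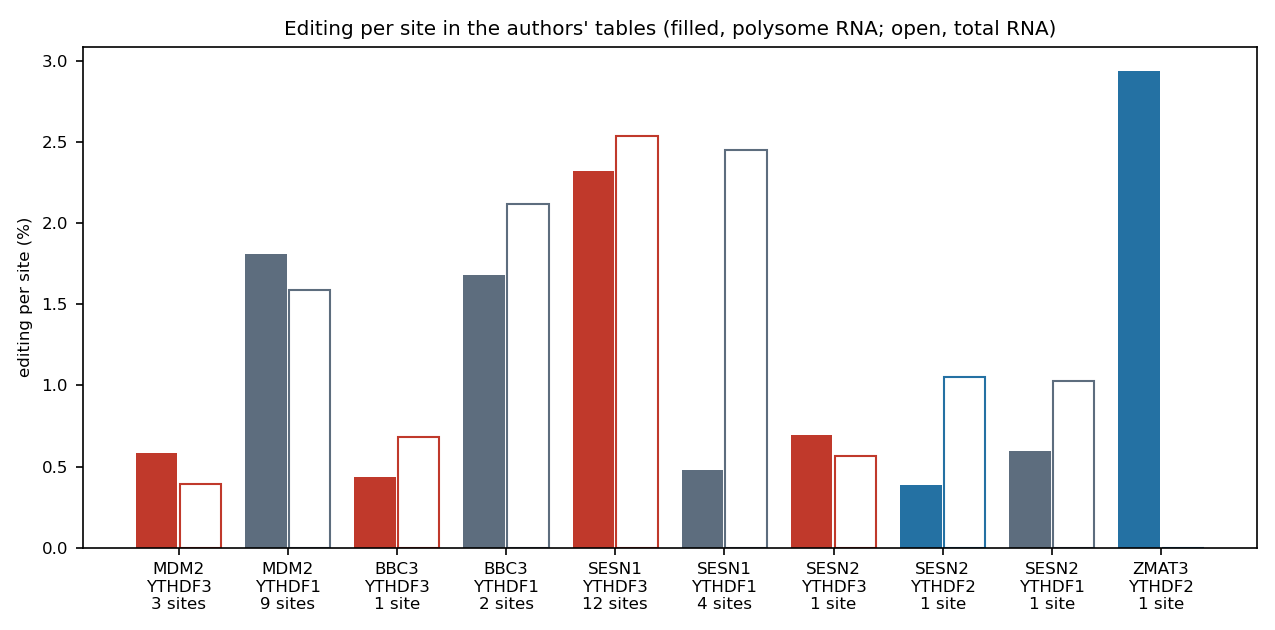
Editing per site in percent (the authors' deposited score divided by sites; linear axis from 0) in polysome RNA (filled) and total RNA (open) for each gene and fusion listed, with the number of sites under each pair of bars; no error can be drawn. SESN1 with YTHDF1-ADAR shows the widest gap among genes with more than 1 site, at 0.480% in polysome RNA and 2.45% in total RNA.

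Of the other p53 targets 14, 6 and 14 of 33 were listed as edited for YTHDF3-ADAR, YTHDF2-ADAR and YTHDF1-ADAR in the authors' deposited tables, and of the p53 regulators 15, 10 and 12 of 19, beside the 46.0%, 29.7% and 45.0% of tested protein-coding genes. CES2, PLK2, POLH, PPM1D and RAP2B were listed for all 3 fusions, a choice of names made after the lists were seen. MDM4, the paralog of MDM2, was also listed for all 3.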

How the data were processed

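Gene counts were deposited by the authors for 18 libraries as whole numbers per gene, and STAR 2.7.7, featureCounts 2.0.1, DESeq2 and the build GRCh38 are named per the submitters' processing notes. Neither the strand setting nor the annotation release is stated there. The authors' deposited table of 1 comparison, which its header does not name, holds a mean signal of normalised counts, a log2 fold change, and p-values. The authors' deposited editing tables hold, for each gene and fusion, a number of sites, an editing score in each fraction and an adjusted p-value, with 1 value over the replicates and no depth. Their column headed as a log2 fold change was deposited by the authors as the natural log of an odds ratio, since recomputing it so from the scores and sites left differences of at most 5.62e-08.

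From the counts, 1 row naming no human gene (40 counts over all libraries) was left out. Genes passing filterByExpr of edgeR 4.0.16 (R 4.3.3, minimum count 10) were fitted in all 18 libraries together with 1 mean per group, TMM scaling and the robust quasi-likelihood test. The p-values were adjusted by Benjamini-Hochberg over all 26804 genes at a threshold of 0.05, and the SE is the size of the log2 fold change divided by the square root of F. The fit was tested on simulated data. Libraries held 42.7e6 to 67.5e6 counts. The labels do not say whether replicates came from separate cultures, so p-values measure only the spread between these libraries. No replicates were alike within sampling noise, the lowest chi-square per degree of freedom being 6.53.

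Polysome and total RNA libraries of the same line and number deviated together from their group means in all 9 pairs, with correlations across genes of 0.200 to 0.671, so the replicate pairs were taken as pairs. Some pairs with different numbers were closer, such as YTHDF3-ADAR polysome 2 with total RNA 3 at 0.511, against 0.358 with total RNA 2. Likewise YTHDF1-ADAR polysome 1 stood at 0.284 with total RNA 2, against 0.247 with total RNA 1. YTHDF2-ADAR polysome 3 stood at 0.212 with total RNA 1, against 0.200 with total RNA 3. Alternatives were DESeq2 1.42.0, its size factors, library totals alone, no filter, the compared libraries alone, a replicate block and leaving out each library. The 9 genes, the lists and the tests were chosen with earlier results of these data known. All 9 genes were named, and from each other list up to the 2 highest and 2 lowest called genes of a comparison. Paralogs were named whatever their values, and so were the 3 protein-coding genes correlating best with each of the 9.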

Additional observations from a re-analysis of the deposited data

How the results depend on the processing

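Over the single-gene results, 491 of 591 alternatives kept direction and side of the threshold, 48 gained a call, 27 lost one and 25 reversed, and of 169 alternatives for counts of called genes 140 stayed within 1.5 times. The number of the 9 genes called for polysome against total RNA was 2 in YTHDF3-ADAR cells, with 0 when the compared libraries were fitted alone, 4 with library totals alone, 1 with no filter and 0 to 2 without single libraries. In YTHDF2-ADAR cells it was 0, with 3 fitted alone, 4 with library totals, 3 with the replicate block and 0 to 1 without single libraries. In YTHDF1-ADAR cells it was 0, with 2 fitted alone, 1 by DESeq2, 6 with library totals, 4 with the replicate block and 0 to 2 without single libraries. For total RNA of YTHDF3-ADAR against YTHDF2-ADAR it was 3, with 0 fitted alone, 1 with library totals, 1 with the replicate block, 7 without both YTHDF3-ADAR libraries numbered 1, and 1 to 4 without single libraries. Against YTHDF1-ADAR it was 1, with 0 fitted alone, 2 with library totals, 5 without both libraries numbered 1, and 1 to 4 without single libraries. On polysomes it was 2 against YTHDF2-ADAR, with 5 without both and 2 to 3 without single libraries, and 1 against YTHDF1-ADAR, with 6 without both and 1 to 2 without single libraries. Between YTHDF2-ADAR and YTHDF1-ADAR, and for differences of polysome association, it was 0 in every alternative run.

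Reversed values, none of them called, were BAX in total RNA of YTHDF3-ADAR against YTHDF1-ADAR at 0.058 with library totals, and, for polysome against total RNA in YTHDF3-ADAR cells, GDF15 at -0.009 with the replicate block, SESN2 at 0.25 with library totals and 0.000 with no filter, and TP53I3 at -0.004 without both libraries numbered 1. Without single libraries, values for polysome against total RNA crossed 0 in YTHDF3-ADAR cells for BAX (-0.04 to 0.111), BBC3 (-0.185 to 0.217), CDKN1A (-0.183 to 0.47), GDF15 (-0.389 to 0.598), SESN2 (-0.318 to 0.146) and TP53I3 (-0.198 to 0.336). They crossed 0 in YTHDF2-ADAR cells for GDF15 (-0.347 to 0.537) and TP53I3 (-0.06 to 0.181) and in YTHDF1-ADAR cells for SESN2 (-0.089 to 0.221), and SESN2 in total RNA of YTHDF3-ADAR against YTHDF2-ADAR ran from -0.044 to 0.46. The cause was not tested.

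Library totals alone moved the median gene to 0.253, 0.396 and 0.462 for polysome against total RNA in YTHDF3-ADAR, YTHDF2-ADAR and YTHDF1-ADAR cells, and to 0.203 and 0.251 in total RNA of YTHDF3-ADAR against YTHDF2-ADAR and YTHDF1-ADAR. On that scale 6788 genes were called higher and 1668 called lower for polysome against total RNA in YTHDF3-ADAR cells, against 2147 and 3245 with TMM. The same numbers were 9093 and 1364, against 1799 and 2424, in YTHDF2-ADAR cells and 10894 and 1527, against 2481 and 3193, in YTHDF1-ADAR cells. In total RNA of YTHDF3-ADAR cells they were 6589 and 558, against 4085 and 2028, beside YTHDF2-ADAR cells and 6780 and 534, against 3109 and 1747, beside YTHDF1-ADAR cells. Across lines, libraries of the same number did not deviate together throughout (correlations from -0.364 to 0.508). Replicate 1 of YTHDF2-ADAR and YTHDF1-ADAR did so most, at 0.508 in total RNA and 0.304 on polysomes, within the range found for pairs within lines. With replicate numbers as a block across lines, MDM2 stayed called in total RNA, at -0.709 and -0.662 against YTHDF2-ADAR and YTHDF1-ADAR (edgeR adjusted p = 0.0317 and 0.0427). GDF15 has too few reads for firm statements, and the depth behind the editing values is unknown.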
